A study of Mus musculus with 6 samples.

Results

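This report describes 7 genes of muscle and epithelium in RNA sequencing of sorted dural lymphatic endothelial cells (LECs): Ttn, Neb, Muc19, Muc5b, Hmcn2, Flg2 and 9530053A07Rik, out of 55401 genes in the tables. They were selected on measured values of these same libraries, as long genes of which several had the smallest p-values in AAV-VEGF-C against AAV-Control. Their difference between the groups is therefore given as a description, and calls of the fit for them are counted only to show what the selection fixed. All 7 passed the filter on low counts. The filter asked for about 2.04 CPM, the counts scaled to a library total of 1000000, in at least 3 libraries, and Muc19, Hmcn2, Flg2 and 9530053A07Rik reached that level in 0 of the AAV-Control libraries and in all 3 AAV-VEGF-C libraries.

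The study asked how dural lymphatic endothelium responds to the lymphatic growth factor VEGF-C. Wild-type male C57BL/6J mice received a single injection of an adeno-associated virus of serotype 9 into the cisterna magna at the age of 4 weeks. In the AAV-VEGF-C group the virus encoded full-length mouse VEGF-C, and in the AAV-Control group it encoded a soluble part of the receptor VEGFR3 that does not bind VEGF-C, so that both groups carried a virus. Viable CD31+ Podoplanin+ LYVE-1+ CD45- cells were sorted from dura mater peeled off the skullcap, and RNA from 10 to 12 pooled animals made 1 library. Each group had 3 libraries from 3 repeats of the experiment, which are numbered 1 to 3 in both groups.

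The libraries held 6530269 to 12399498 counts in AAV-Control and 564475 to 3261935 in AAV-VEGF-C, so depth and treatment cannot be told apart. All 11 lymphatic endothelial markers on a fixed list, among them Prox1, Flt4, Lyve1 and Pdpn, were detected in every library. edgeR's quasi-likelihood test called 0 of these 11 genes at an adjusted p under 0.05, and 0 of them had an unadjusted p under 0.05. The 3 most abundant were Ccl21a, a chemokine of lymphatic vessels, Cdh5, the cadherin of endothelial junctions, and Mmrn1. Their log2 fold changes were 0.42, -0.75 and -0.06. The CPM of Pdpn and Cdh5 did not overlap between the groups, with AAV-Control on top. Pdpn stood at 61.9, 44.8 and 45.2 CPM against 44.3, 23.0 and 22.7, and Cdh5 at 273, 305 and 534 against 250, 163 and 136. Of the 11 markers, 2 were thus lower without overlap and 0 higher, against 3332 and 3601 of the 17459 genes tested. The libraries also differed in counts on 1653 genes of families without a known role in endothelium, namely olfactory, vomeronasal and taste receptors, keratin-associated proteins and defensins, called silent families here. These genes took 136 to 263 CPM in AAV-Control and 2752 to 6872 CPM in AAV-VEGF-C. Of the 1653 genes, 206 could be tested, and 179 were called higher in AAV-VEGF-C and 0 lower, against 10.5% higher over all genes tested. The median log2 fold change of the 206 was 5.07. How many of the 206 passed the filter only through AAV-VEGF-C was not counted. In these bulk samples, fewer cells of a type and less RNA per cell cannot be told apart.

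Titin, the product of Ttn, is a spring-like protein that spans the sarcomere of striated muscle from the Z disc to the M line, and nebulin, the product of Neb, is an actin-binding protein along the thin filament. Muc5b and Muc19 encode gel-forming mucins, the large glycoproteins that give mucus its viscosity, and Flg2 encodes filaggrin-2, a repetitive protein of the cornified layer of skin. Hmcn2 encodes hemicentin-2, an extracellular matrix protein built from many immunoglobulin domains, and 9530053A07Rik is a relative of Fcgbp, which encodes the IgG Fc-binding protein of mucus. A long transcript collects more reads than a short one at the same number of molecules, so a count has to be read beside the length over which it was collected.

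The 7 genes were placed on GENCODE M21 (GRCm38). Ttn lies at chr2:76703980-76982547 on the minus strand, with 116.825 kb of merged exons and 25 annotated transcripts that run from 0.271 to 106.824 kb. It had the longest coding sequence of 22028 coding genes, 105.639 kb. Neb lies at chr2:52136647-52378474 on the minus strand, with 13 transcripts and a coding sequence of 21.456 kb, the 7th longest. Hmcn2 (chr2:31314415-31460738, plus strand) and Muc5b (chr7:141839070-141873084, plus strand) ranked 22 and 35 with coding sequences of 15.3 and 14.4 kb. 9530053A07Rik (chr7:28129466-28164811, plus strand) and Flg2 (chr3:93197278-93221391, plus strand) ranked 229 and 305 with 7.743 and 7.008 kb. Muc19 (chr15:91838326-91934555, plus strand) has no coding sequence in this annotation, where it is a processed transcript with 9.105 kb of exons. The description of the 7 genes as very long coding genes thus held for 4 of them at 14.4 kb or more, and did not hold for Muc19 in this annotation. The Flg2 transcript of 20.803 kb is annotated as non-coding, while its coding transcript is 7.011 kb long.

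Ttn overlaps the antisense gene Gm13938, Neb overlaps the pseudogene Gm13521 on its own strand and the genes Gm13522 and Gm22095 on the other, and Muc19 overlaps Smgc on its own strand. Whether reads were counted by strand is not given in the sources used here, so reads in these overlaps are uncertain.

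The sequences of these genes bear on how their reads could be assigned. Windows of 100 bases, the length of a read, were taken along the longest transcript, and the share that occurs more than once in that transcript was 55.5% in Flg2, 31.9% in Muc19, 16.0% in Muc5b, 1.41% in Neb, 0.607% in Ttn and 0 in Hmcn2 and 9530053A07Rik. In the coding transcript of Flg2 the share was 17.7%. How reads with several equal matches were assigned is not given in the sources used here. Of the 7 genes, 9530053A07Rik alone had windows that occur in transcripts of another gene, 2.13% of its windows, all shared with Fcgbp. The most repeated windows of the 3 repetitive genes and the longest run shared with Fcgbp are printed here because they show the repeats directly. Capitals mark the repeated window or the shared run, lower case marks 10 flanking bases, and all read 5′ to 3′ on the plus strand of GRCm38 from GENCODE M21 transcripts. The Flg2 window occurs 7 times in the coding transcript and its first copy lies in exon 2 of 6, at chr3:93203820-93203919. The Muc19 window occurs 8 times, first in exon 33 of 43 at chr15:91906850-91906949. The Muc5b window occurs 5 times, first in exon 31 of 49 at chr7:141858057-141858156. The run of 206 bases shared by 9530053A07Rik and Fcgbp is coding in both genes and spans exons 13 and 14 of 19, at chr7:28155661-28156705 with an intron between them.
Flg2: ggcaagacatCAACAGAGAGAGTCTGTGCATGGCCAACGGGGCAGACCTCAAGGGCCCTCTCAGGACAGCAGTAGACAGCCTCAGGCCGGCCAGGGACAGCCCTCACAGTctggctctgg
Muc19: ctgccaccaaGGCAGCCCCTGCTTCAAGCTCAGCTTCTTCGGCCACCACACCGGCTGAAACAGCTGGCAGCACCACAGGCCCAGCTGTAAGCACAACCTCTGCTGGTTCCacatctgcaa
Muc5b: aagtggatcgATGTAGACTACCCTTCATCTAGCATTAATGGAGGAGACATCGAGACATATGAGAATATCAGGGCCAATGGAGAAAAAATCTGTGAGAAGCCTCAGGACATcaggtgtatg
9530053A07Rik: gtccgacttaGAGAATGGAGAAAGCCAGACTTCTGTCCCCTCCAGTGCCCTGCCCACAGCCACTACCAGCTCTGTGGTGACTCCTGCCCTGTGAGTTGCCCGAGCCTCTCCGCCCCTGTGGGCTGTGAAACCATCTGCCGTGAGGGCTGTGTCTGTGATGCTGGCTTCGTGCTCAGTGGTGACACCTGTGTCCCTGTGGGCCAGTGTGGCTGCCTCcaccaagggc

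The muscle genes come first. Ttn had 46, 115 and 231 counts in AAV-Control 1, 2 and 3, and 46, 64 and 288 in AAV-VEGF-C 1, 2 and 3. The raw counts of the groups thus overlapped, and the summed counts, 392 and 398, were nearly equal. Scaled to the library total, Ttn stood at 7.04, 14.6 and 18.6 CPM in AAV-Control and at 81.5, 44.6 and 88.3 CPM in AAV-VEGF-C. On this scale every AAV-VEGF-C library lay above every AAV-Control library, 5.32-fold in the means (13.4 ± 5.89 against 71.5 ± 23.5 CPM, SD, n = 3 each), and the log2 fold change of the fit was 2.62 (SE 0.44). Neb had 3, 20 and 22 counts in AAV-Control and 2, 10 and 54 in AAV-VEGF-C, or 0.459, 2.55 and 1.77 against 3.54, 6.97 and 16.6 CPM. Here too the groups overlapped in counts and not in CPM. The lowest AAV-VEGF-C value of Neb rests on 2 counts, with a 95% Wilson interval of 0.972 to 12.9 CPM that takes in the values of AAV-Control 2 and 3. The log2 fold change was 2.68 (SE 0.72).

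Of the mucins, Muc19 had 7, 9 and 9 counts in AAV-Control and 54, 69 and 269 in AAV-VEGF-C. Each AAV-VEGF-C library thus held more Muc19 counts than any AAV-Control library while holding fewer counts in all. By the ratio of the group means in CPM it differed most of the 7 genes, at 1.07, 1.15 and 0.726 against 95.7, 48.1 and 82.5 CPM (76.9-fold in the means, log2 fold change 6.44, SE 0.52). Muc5b, the main gel-forming mucin of the airways, differed from the other 6 genes. It had 8, 416 and 377 counts in AAV-Control and 9, 27 and 67 in AAV-VEGF-C, that is 1.22, 52.9 and 30.4 CPM against 15.9, 18.8 and 20.5 CPM. AAV-Control 1 was the lowest of the 6 libraries and AAV-Control 2 and 3 were the highest, so the groups overlapped and the AAV-VEGF-C libraries lay between them. The log2 fold change of Muc5b was -0.43 (SE 0.97), and its sign turned with the experiment number as a block (0.06), without AAV-Control 2 (0.49) and with all libraries drawn down to 1 depth (0.43).

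The matrix gene Hmcn2 had 5, 10 and 19 counts in AAV-Control and 15, 26 and 170 in AAV-VEGF-C, or 0.766, 1.27 and 1.53 against 26.6, 18.1 and 52.1 CPM. The counts overlapped between 15 and 19, while the CPM did not (27.1-fold, log2 fold change 4.89, SE 0.50). AAV-VEGF-C 3 was the highest library of Hmcn2 on both scales.

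The epidermal gene Flg2 had 3, 1 and 2 counts in AAV-Control and 5, 29 and 67 in AAV-VEGF-C, or 0.459, 0.127 and 0.161 against 8.86, 20.2 and 20.5 CPM. 9530053A07Rik had 3, 2 and 3 counts in AAV-Control and 9, 25.59 and 53.93 estimated counts in AAV-VEGF-C, or 0.459, 0.255 and 0.242 against 15.9, 17.8 and 16.5 CPM. Both were higher in every AAV-VEGF-C library on both scales, with log2 fold changes of 6.19 (SE 0.64) and 5.84 (SE 0.53). With 1 to 3 counts per AAV-Control library the size of these ratios is loose. From summed counts, 6 and 101 for Flg2, the ratio was 85.7 with an exact 95% interval of 38.0 to 239. From 8 and 89 for 9530053A07Rik, it was 56.6 with an interval of 27.5 to 135. The Wilson and exact intervals cover counting error only.

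9530053A07Rik had fractional counts in AAV-VEGF-C 2 and 3, and Fcgbp, with which it shares sequence, had fractions in the same libraries. Fcgbp had 0, 4 and 2 counts in AAV-Control and 1, 18.41 and 70.07 in AAV-VEGF-C. The sums of both genes were whole in every library, at 3, 6 and 5 in AAV-Control and 10, 44 and 124 in AAV-VEGF-C. The groups did not overlap in the summed counts.

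**Figure D1:**
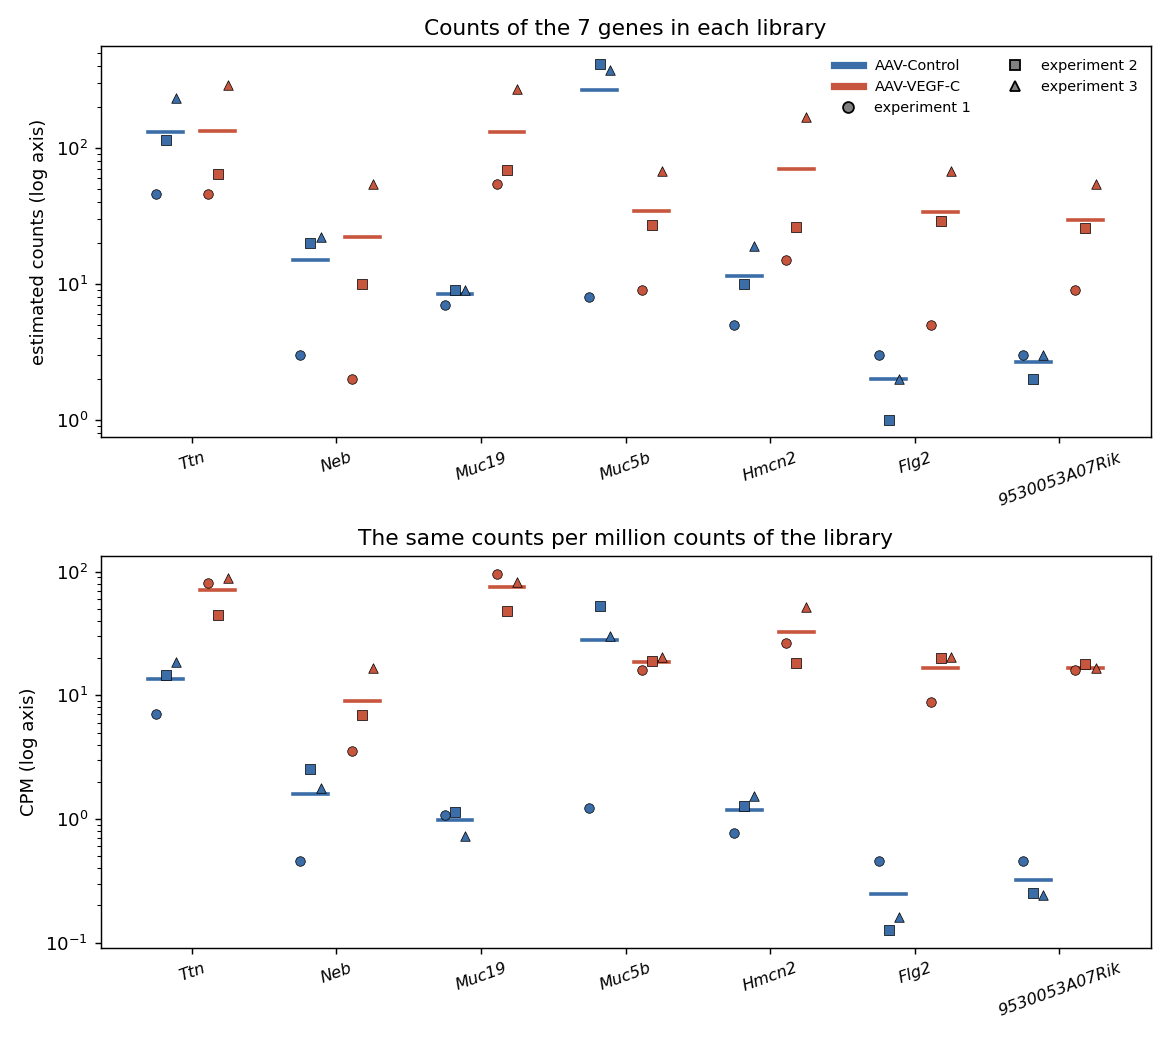
Estimated counts (upper panel) and CPM (lower panel) of the 7 genes on log axes, with a symbol per library, its shape showing the experiment number, and a bar at the mean of each group. The counts of Ttn, Neb and Hmcn2 overlap between groups and their CPM do not, while Muc5b overlaps on both scales.

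Of the 7 genes, 5 were called higher in AAV-VEGF-C by edgeR's quasi-likelihood test at an adjusted p under 0.05, all but Neb and Muc5b, against 10.5% of the 17459 genes tested. In 6 of the 7 every AAV-VEGF-C library lay above every AAV-Control library in CPM, against 20.6% of the genes tested. Both counts follow from the way the genes were selected, and nothing is read from them. The count of calls was 6 with the experiment number as a block, with no filter or with DESeq2, 4 and 2 by limma on log2(TPM + 0.1) and log2(TPM + 1), 0 without AAV-Control 2 or without AAV-Control 3 (6 at an unadjusted p under 0.05 in each), 2 without AAV-VEGF-C 2, 4 without AAV-VEGF-C 3, and 1 with all libraries drawn down to the smallest total, where only Ttn, Muc19 and Muc5b could be tested.

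Across the 6 libraries the 7 genes varied together, with Muc5b as the exception. Genes selected on a difference between the groups vary together over them by that choice, and so do genes picked for likeness to their mean. Nothing is read from the correlations. Pearson's r of log2(CPM + 1), TMM scaled, between pairs, given as a description over 6 libraries that share their depth and group, ran from 0.82 to 0.99 among the 6 genes other than Muc5b and was highest for Muc19 with 9530053A07Rik. For Muc5b with any of the other 6 it ran from 0.09 to 0.44. Among 10736 other protein-coding genes with at least 200 counts in all, those most like the mean of the 7 genes included C130026I21Rik (r = 0.98), Col26a1 (0.98), Garnl3 (0.97) and Agap2 (0.97), and 78 genes had r above 0.9. Col26a1 encodes a collagen. Col26a1, Garnl3 and Agap2 have coding sequences of 1320, 3114 and 3558 bases, shorter than that of any member that has one. Their merged exons hold 8176, 12352 and 5941 bases. By exons Garnl3 is thus longer than Muc19 (9.105 kb) and 9530053A07Rik (11.843 kb).

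The order of the genes was compared per length, as CPM per kb of merged exon. In AAV-Control the mean level was highest for Muc5b at 1.88 ± 1.73, followed by Ttn at 0.115 ± 0.050, Muc19 at 0.108 ± 0.025, Hmcn2 at 0.074 ± 0.024, Neb at 0.060 ± 0.040, 9530053A07Rik at 0.027 ± 0.010 and Flg2 at 0.012 ± 0.0088 (SD, n = 3). Ttn lay above Muc19 in only 1 of the 3 libraries. Muc19 lay above Hmcn2, Hmcn2 above Neb and Neb above 9530053A07Rik in 2 each, so these neighbours were not separated beyond their spread. Muc5b lay below Muc19 in AAV-Control 1, at 0.082 against 0.118. In AAV-VEGF-C the order began with Muc19 at 8.28 ± 2.70, then Hmcn2 at 2.01 ± 1.10, 9530053A07Rik at 1.42 ± 0.082, Muc5b at 1.23 ± 0.155, Flg2 at 0.795 ± 0.320, Ttn at 0.612 ± 0.201 and Neb at 0.339 ± 0.254. Muc19 lay above Hmcn2 in all 3 libraries, while Hmcn2 lay above 9530053A07Rik in 2 and Flg2 above Ttn in 2. Ttn, among the 2 genes with the most counts of the 7 in each AAV-VEGF-C library, came 6th once its length was taken into account.

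Counts were then set against length and against the silent families of the same library. The silent families had 0.0468, 0.0285 and 0.0242 CPM per kb of exon in AAV-Control and 1.22, 0.639 and 0.490 in AAV-VEGF-C. At that density the 116.825 kb of Ttn would collect 35.7, 26.1 and 35.1 counts in AAV-Control and 80.6, 107 and 187 in AAV-VEGF-C. Ttn was therefore at 1.29, 4.40 and 6.58 times the density of the silent families in AAV-Control, and at 0.570, 0.597 and 1.54 times in AAV-VEGF-C. In AAV-VEGF-C 1 and 2 the longest gene had fewer counts than a silent gene of its length would have had, on average. Neb stood at 0.370, 3.36 and 2.75 times in AAV-Control and at 0.109, 0.410 and 1.27 times in AAV-VEGF-C. On this scale both muscle genes were lower in the AAV-VEGF-C library of every experiment number, the opposite of their direction in CPM. The divisor itself was higher in every AAV-VEGF-C library, so any gene that rose less than it falls on this scale. For 91 other tested genes with a coding sequence of at least 8 kb, from 5 to 50 TPM, the median ratio fell too. It was 370 in AAV-Control and 11.5 in AAV-VEGF-C. The fall is thus not particular to Ttn and Neb.

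Muc19 was the gene of the 7 that exceeded the silent families most in AAV-VEGF-C, at 8.59, 8.27 and 18.5 times, against 2.52, 4.42 and 3.29 times in AAV-Control. These groups did not overlap. Muc19, like Hmcn2, Flg2 and 9530053A07Rik, was selected on these counts and reached the filter's minimum only in AAV-VEGF-C. Their overlap or lack of it on this scale is a description, and nothing is read from it. Muc5b stood at 1.75, 124 and 83.8 times in AAV-Control and at 0.871, 1.97 and 2.80 times in AAV-VEGF-C. Its counts in AAV-Control 2 and 3 are the only values of the 7 genes above 20 times.

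Hmcn2 was at 1.02, 2.78 and 3.93 times in AAV-Control and at 1.35, 1.76 and 6.62 times in AAV-VEGF-C, with overlap. Flg2 was at 0.472, 0.215 and 0.320 times against 0.348, 1.52 and 2.02 times, and 9530053A07Rik at 0.830, 0.755 and 0.843 times against 1.10, 2.36 and 2.85 times. The groups overlapped for Flg2 and did not for 9530053A07Rik. Summed over the 7 genes the density was 1.14, 11.9 and 10.2 times that of the silent families in AAV-Control, and 0.938, 1.26 and 2.81 times in AAV-VEGF-C. Muc5b held 72.6% and 56.9% of the summed counts of the 7 genes in AAV-Control 2 and 3, and 6.43% to 10.8% in the other 4 libraries. Without Ttn the summed density was 0.956, 20.6 and 14.5 times that of the silent families in AAV-Control and 1.37, 2.05 and 4.29 times in AAV-VEGF-C. With coding sequence in place of merged exons the values were 0.388, 4.40 and 3.80 against 0.217, 0.346 and 0.765. These sums leave out Muc19, which has no coding sequence in this annotation, and still use the counts of whole exons. The part of the silent-family signal in the differences of the 7 genes was not tested.

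**Figure D2:**
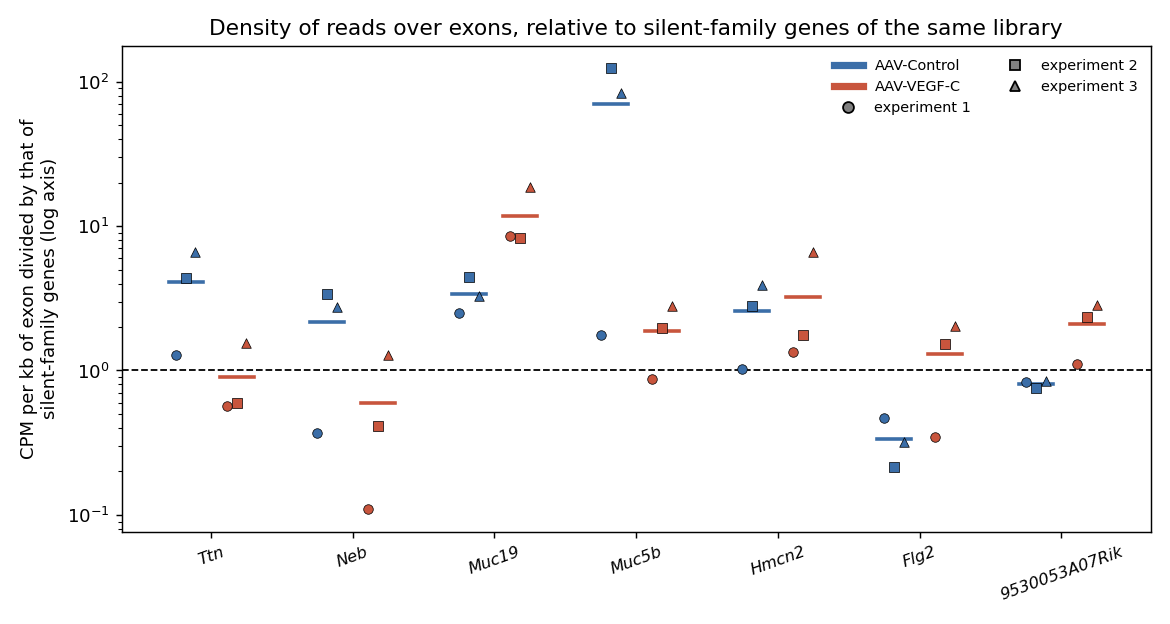
CPM per kb of merged exon of each gene divided by that of the 1653 silent-family genes of the same library, on a log axis, with a bar at the mean of each group and a dashed line at 1. In AAV-VEGF-C 10 of the 21 values lie between 0.5 and 2, with a range from 0.109 for Neb to 18.5 for Muc19, and Muc5b in AAV-Control 2 and 3 stands apart at 124 and 83.8.

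TPM values divide by a length that the authors' program estimated for each gene and library. That length was worked back from counts and TPM, scaled on genes with 1 annotated transcript, where 5% to 95% of such genes lay within 64.7% to 129% of the median in the library with the widest spread. For Muc5b, which has 1 transcript of 14.964 kb, it was 15.9 to 18.4 kb in the 6 libraries. For Muc19 it was 9.98 to 10.3 kb and for Flg2 20.5 to 25.8 kb, nearer to the non-coding Flg2 transcript of 20.803 kb than to the coding one of 7.011 kb.

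For Ttn, Neb, Hmcn2 and 9530053A07Rik the length was not constant. Ttn was treated as 90.5, 9.84 and 12.2 kb long in AAV-Control and as 3.58, 13.5 and 17.2 kb in AAV-VEGF-C. The same 46 counts became 0.046 TPM in AAV-Control 1 and 5.78 TPM in AAV-VEGF-C 1. Library scale and length both enter this gap, as these counts were already 7.04 and 81.5 CPM before any length was applied. The other Ttn libraries stood at 0.959 and 1.27 TPM in AAV-Control 2 and 3, and at 1.31 and 2.34 TPM in AAV-VEGF-C 2 and 3. Neb was treated as 1.78 to 11.1 kb in AAV-Control and as 8.83 to 21.9 kb in AAV-VEGF-C. Its TPM, 0.153, 0.148 and 0.255 against 0.093, 0.126 and 0.855, overlapped between groups where its CPM did not.

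The TPM of the other members kept their groups apart except in Muc5b. Muc19 had 0.063, 0.074 and 0.059 TPM against 2.35, 1.89 and 3.73. Hmcn2 had 0.054, 0.044 and 0.071 TPM against 0.559, 0.568 and 3.11, and its length fell between 7.63 and 18.6 kb. Flg2 stayed at or under 0.399 TPM in all 6 libraries, and 9530053A07Rik at or under 1.40 TPM. Muc5b had 0.043, 2.07 and 1.48 TPM against 0.22, 0.456 and 0.589.

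**Figure D3:**
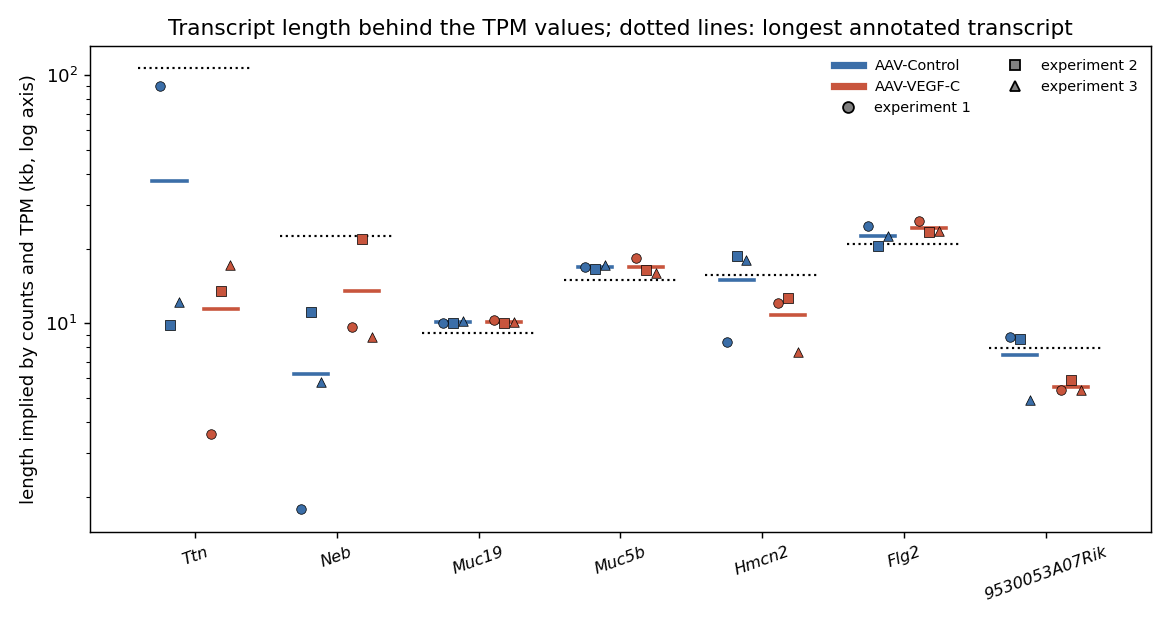
Length in kb implied by counts and TPM for each gene and library, on a log axis, with a bar at the mean of each group and a dotted line at the longest annotated transcript. Muc19, Muc5b and Flg2 stay near their longest transcript, while Ttn ranges from 3.58 to 90.5 kb.

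Muscle genes of ordinary length were examined beside Ttn and Neb. Of 35 such genes, 13 could be tested, and 5 were called higher in AAV-VEGF-C and 0 lower, against 10.5% higher over all genes tested. The 13 genes had a median log2 fold change of 0.34, against -0.0037 over all genes tested. All 5 were under the 2.04 CPM of the filter in every AAV-Control library, so they entered the test only through AAV-VEGF-C and had to be higher there, and nothing is read from the count or the median. The same held for 1509 of the 1835 genes called higher in all. The 5 were Acta1, skeletal muscle actin, Casq1 and Atp2a1, the calsequestrin and calcium pump of the sarcoplasmic reticulum, Ldb3, a Z-disc protein, and Smyd1, a methyltransferase of muscle. They rested on few reads: Acta1, with a log2 fold change of 4.72 (adjusted p = 0.0387 by edgeR), had 3.01, 6.62 and 1 counts in AAV-Control and 2.09, 3.4 and 90.53 in AAV-VEGF-C. The other 4 had log2 fold changes from 2.83 to 4.10 and at most 24 counts in any library. The count of muscle genes called higher was 3 with the replicate block and 0 without any 1 of the AAV-VEGF-C libraries, AAV-Control 2 or AAV-Control 3, where edgeR gave 4 to 10 at an unadjusted p under 0.05. Summed over the 35 genes, the level was 87.8 to 153 CPM in AAV-Control and 102 to 218 CPM in AAV-VEGF-C, with overlap. Between 8 and 10 of the 35 were at 0 in each AAV-Control library, and 9, 8 and 0 in AAV-VEGF-C 1, 2 and 3. In AAV-VEGF-C 1, with 46 counts of Ttn, 26 of the 35 genes had at least 1 count.

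All 12 other long muscle genes could be tested, and 5 were called higher and 0 lower, against 10.5% higher over all genes tested. The median log2 fold change of the 12 was 0.88. Of the 5, 4 were under the filter's minimum in every AAV-Control library, so nothing is read from the count or the median. Among the 5 were Ryr1, the calcium release channel (4.73), and Cacna1s, the voltage sensor that opens it (5.58). Xirp1 (3.38) and Xirp2 (4.14), actin-binding proteins of muscle attachment, were among them too. Ryr1 had 18, 12 and 3 counts in AAV-Control and 32, 22 and 111 in AAV-VEGF-C, and its groups overlapped in neither counts nor CPM (adjusted p = 0.0241 by edgeR). The long genes that did not pass included Dmd (1.10), Speg (0.22), Cmya5 (0.14), Flnc (-0.19) and Obsl1 (-0.28), each with at least 123 counts in every AAV-Control library.

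Epithelial genes were counted in the same way. Of 33 genes of cornified epithelium, 15 could be tested, and 5 were called higher and 0 lower (median 1.60), against 10.5% higher over all genes tested. All 5 were under the filter's minimum in every AAV-Control library and had to be higher in AAV-VEGF-C to be tested, so nothing is read from the count or the median. They were Flg (5.51) and Hrnr (5.93), members of the same fused-type protein family as Flg2, Lor (3.70), a structural protein of the cornified envelope, and the keratins Krt1 (3.65) and Krt77 (3.94). Hrnr had 1, 1 and 0 counts in AAV-Control and 3, 5 and 26 in AAV-VEGF-C. The basal keratin Krt14 had 2, 0 and 0 counts against 0, 1 and 17.2 and was not tested. Summed over the list the level was 82.3 to 117 CPM in AAV-Control and 131 to 228 CPM in AAV-VEGF-C, and from 1 to 14 of the 33 genes were at 0 per library.

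Of 33 genes of secretory epithelium, 17 could be tested, and 5 were called higher and 0 lower (median 1.68), against 10.5% higher over all genes tested. All of the 5 but Muc4 were under the filter's minimum in every AAV-Control library, with the same limit on the count and the median. They were the mucins Muc5ac (6.72), Muc4 (3.06) and Muc20 (5.12), the antibody transporter Pigr (4.03) and the transcription factor Foxa1 (5.17). Muc4 overlapped between the groups in CPM. Tff1 and Scgb3a2, secreted products of mucous and airway cells, were at 0 in all 6 libraries. Summed over the list the level was 51.1 to 96.2 CPM in AAV-Control and 138 to 314 CPM in AAV-VEGF-C.

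The relatives of the 7 genes did not share a single direction. Of 13 genes, 10 could be tested, and 4 were called higher and 0 lower (median 1.80), against 10.5% higher over all genes tested. All 4 were under the filter's minimum in every AAV-Control library, with the same limit on the count and the median. They were Muc5ac, the neighbour mucin of Muc5b, Flg and Hrnr, and Zan (3.60), a sperm protein with von Willebrand domains. Hmcn1, the other hemicentin gene, had 679, 572 and 2622 counts in AAV-Control and 19, 90 and 231 in AAV-VEGF-C. All AAV-VEGF-C libraries of Hmcn1 lay below all AAV-Control libraries in CPM, with a log2 fold change of -1.02 (SE 0.38) that did not pass (edgeR adjusted p = 0.13). Nebl, the nebulin relative of non-skeletal muscle, was at -0.19, Nrap at 0.66, Muc2 at 1.13, Muc6 at 2.46 and Vwf at -1.49, and none of these 5 passed. Fcgbp, Rptn and Tecta were below the filter. Muc2, Muc6 and Fcgbp also belong to the secretory list, Nebl and Nrap to the long muscle list, and Flg, Hrnr and Rptn to the cornified list.

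Density relative to the silent families was taken for the lists as well. The 35 muscle genes stood at 29.3, 29.7 and 60.9 times the density of the silent families in AAV-Control and at 0.800, 1.67 and 4.29 times in AAV-VEGF-C. The cornified list went from 19.0 to 25.8 times in AAV-Control and from 0.967 to 3.53 times in AAV-VEGF-C, and the secretory list from 7.97 to 25.3 and from 0.823 to 4.68 times. The lymphatic markers stood at 750 to 1247 times in AAV-Control and at 28.6 to 45.6 times in AAV-VEGF-C. All AAV-VEGF-C values of the lists lay below all AAV-Control values, on a divisor that was itself higher in every AAV-VEGF-C library. The share of the silent-family signal in the counts of these lists was not tested.

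**Figure D4:**
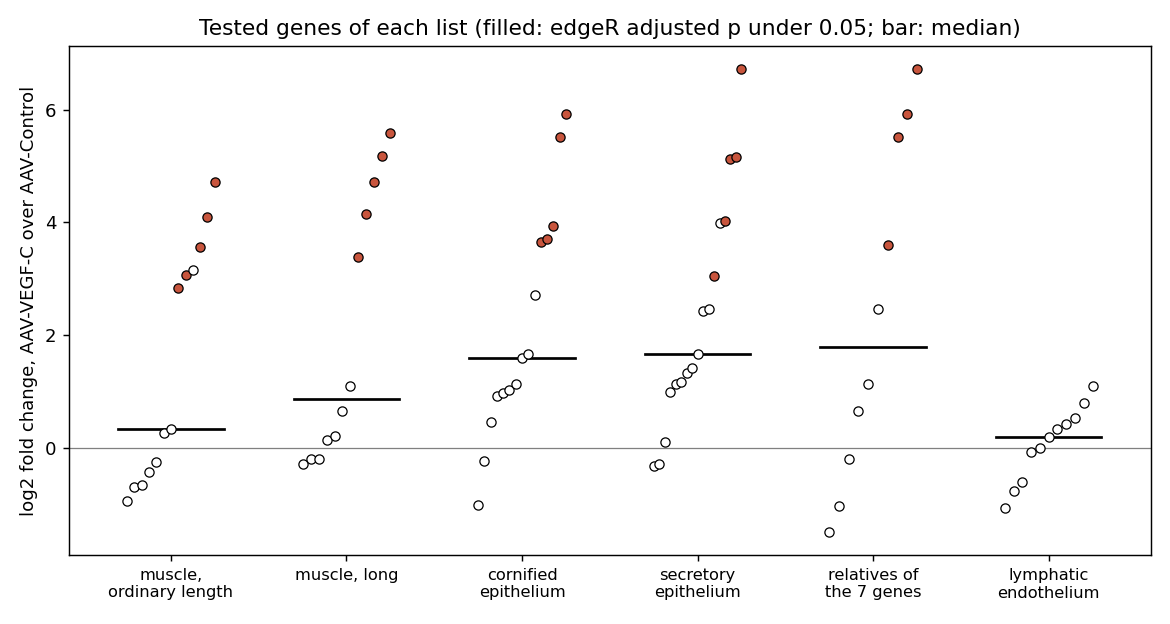
Log2 fold changes, AAV-VEGF-C over AAV-Control, of the tested genes of 6 lists, filled where the edgeR adjusted p was under 0.05, with a bar at the median. The muscle, epithelial and relative lists hold 4 or 5 filled genes each and the lymphatic list holds 0.

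Length alone was examined over all other genes. Of 203 other genes with a coding sequence of at least 8 kb, 192 could be tested. In AAV-VEGF-C 30 were higher and 0 lower, or 15.6% higher, against 10.5% over all genes tested. Of the 30, 16 were under the filter's minimum in every AAV-Control library and had to be higher to be tested. The median log2 fold change of the 192 genes was -0.19. The median depended on level. It was 2.57 for 26 such genes with a mean under 0.5 TPM, 0.73 for 67 genes from 0.5 to 5 TPM, -0.54 for 91 genes from 5 to 50 TPM and -0.84 for 8 genes above that. The 30 that were higher all had a mean under 5 TPM, 14 of them in the lowest class and 16 in the next. The 3 most abundant were Lrp1, an endocytic receptor (-0.92), Ahnak, a giant scaffold protein (-1.24), and Col12a1, a collagen (-1.44), and none of the 3 passed.

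In the lowest class, short genes showed larger differences than long ones among those tested. With a mean under 0.5 TPM, the median log2 fold change was 4.61 for 224 genes with a coding sequence under 1 kb and 72.8% were called higher, against 2.57 and 53.8% for the 26 genes of at least 8 kb. The filter acted unequally on them: 6.04% of 3707 detected genes under 1 kb passed it, against 70.3% of 37 genes of at least 8 kb. Low genes that pass mainly through AAV-VEGF-C libraries had to be higher there, so these medians describe the tested genes only. Neb and Flg2 belong to the lowest class by mean TPM and the other 5 members to the class from 0.5 to 5 TPM.

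**Figure D5:**
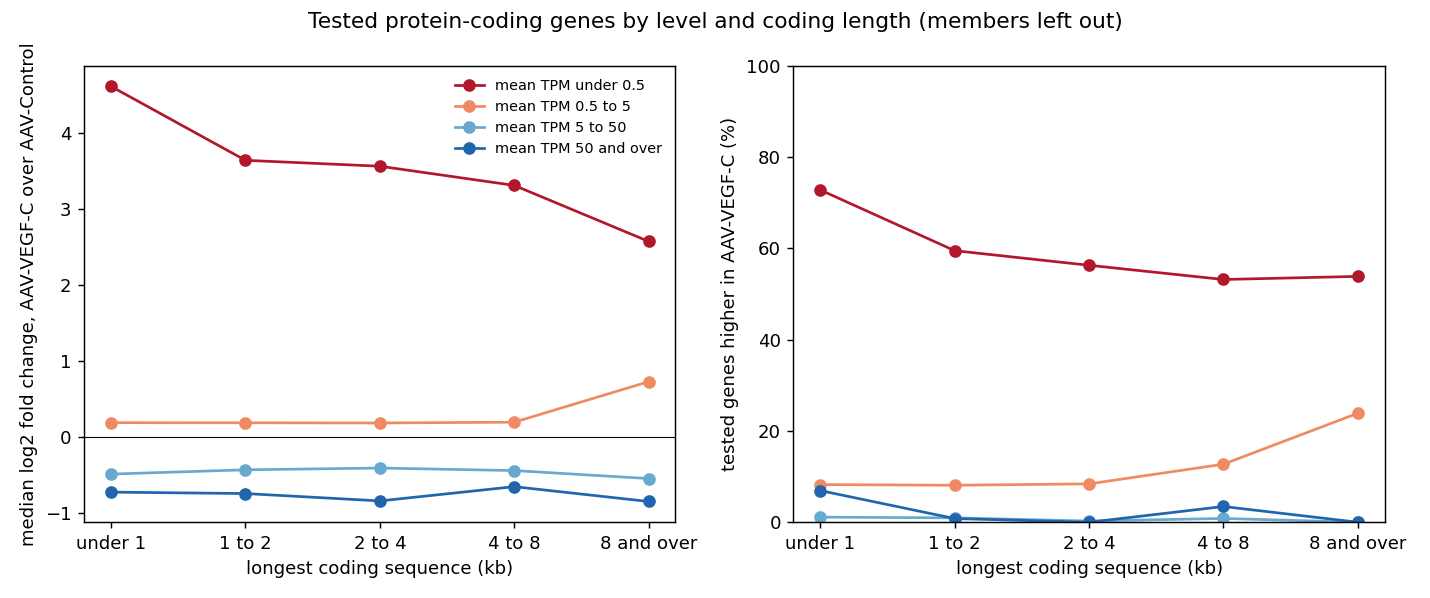
Median log2 fold change (left) and share of tested protein-coding genes called higher in AAV-VEGF-C (right) by length of the longest coding sequence, with a line per class of mean TPM and the 7 genes left out. Genes under 0.5 TPM lie between 2.57 and 4.61 at all lengths and genes of 5 TPM or more lie below 0 at all lengths.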

How the data were processed

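RNA of sorted dural LECs was measured in 6 libraries, 3 per group, made with a stranded total RNA kit for low input. The authors deposited a table of estimated counts with no scaling between libraries and a table of TPM, which divide by an estimated transcript length and by the library sum. The submitters' processing notes name FastQC, Trimmomatic, DRAGEN, Picard and build mm10, with no roles, and the use of strand is not given in the sources used here. Of the identifiers, 98.1% equal GENCODE M21 with their version and 99.5% without it, and lengths and positions came from that annotation.

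Groups came from the labels. Counts were rounded to whole numbers, filtered by filterByExpr, scaled by TMM factors and compared with edgeR's quasi-likelihood test (edgeR 4.0.16, R 4.3.3) with Benjamini-Hochberg adjustment over 17459 genes at 0.05. CPM used unrounded library totals without TMM factors. The SE given with a log2 fold change was worked back, as its absolute size divided by the square root of the test's F statistic. The script was tested on simulated data. DESeq2 (1.42.0), which the study used, and limma (3.58.1) on log2(TPM + 1) and log2(TPM + 0.1) were alternatives, beside other scaling, no filter, counts drawn down to 564430, leaving out each library, and the experiment number as a block. Same-numbered libraries deviated together (r = 0.37, 0.28 and 0.15 across genes, which are not independent replicates), while differently numbered pairs ran up to 0.22, for AAV-Control 3 with AAV-VEGF-C 2, above the lowest same-numbered pair. The labels tie the number to a repeat of the experiment, so the numbers were read as a pairing. Library totals rose with the number in both groups, so experiment and depth order cannot be told apart in these r values. The main fit used the group alone and leaves this pairing out. With the number as a block, run as an alternative, edgeR called 2241 genes higher and 362 lower, against 1835 and 115 in the main fit.

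The members and the gene lists were chosen with earlier results of these data known. The genes named are the 7 members, the list genes that pass the test (or the 3 most abundant where none or more than 6 pass), the relatives of the members, the 5 genes most like their mean and the 3 most abundant other long genes. A gene that this rule names is not reported here. Krt14, Tff1 and Scgb3a2, the long muscle genes that did not pass and Prox1, Flt4, Lyve1 and Pdpn are further list genes, named after their values were seen. Totals of 564475 to 12399498 counts limit low genes most in AAV-VEGF-C.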

Additional observations from a re-analysis of the deposited data

How the results depend on the processing

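The number of calls changed under most alternatives. With library size alone 53 genes were lower in place of 115. With no filter 9382 genes were higher and 1175 lower, with 13 muscle, 12 cornified, 12 secretory and 8 related genes higher. DESeq2, run without the filter, called 5669 higher and 504 lower, with 10 muscle, 9 cornified, 9 secretory and 8 related genes. limma on log2(TPM + 1) called 1112 higher and 434 lower, with 1 muscle, 3 long muscle, 1 cornified, 2 secretory, 1 related and 8 other long genes. On log2(TPM + 0.1) it called 1 muscle, 3 long muscle, 2 cornified, 2 related and 12 other long genes. Drawn down to the smallest total, edgeR called 12 genes higher and 0 lower, and 0 in every list, while 525 and 231 had an unadjusted p under 0.05, among them 0 muscle, 2 long muscle, 0 cornified, 1 secretory, 1 related and 15 other long genes. With the replicate block 362 genes were lower and 3 muscle genes higher, and the other counts stayed within 1.5 times.

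Leaving out 1 library in turn gave 0 to 1771 higher and 0 to 48 lower genes, with 0 to 4 muscle, 0 to 4 long muscle, 0 to 5 cornified, 0 to 6 secretory, 0 to 6 related and 0 to 30 other long genes. edgeR called 0 genes without AAV-Control 2 or without AAV-Control 3, where 3604 and 3641 genes were higher at an unadjusted p under 0.05, and 8 without AAV-VEGF-C 2. Every list had 0 calls without AAV-Control 2 or 3. Without AAV-VEGF-C 2 there were 0 muscle, 1 long muscle, 0 cornified, 0 secretory, 0 related and 1 other long genes, and 5 to 46 per list before adjustment. Without AAV-VEGF-C 3 there were 320 higher and 8 lower genes, with 0 muscle, 2 long muscle, 0 cornified, 1 secretory, 1 related and 4 other long genes. Without AAV-VEGF-C 1 there were 1233 higher genes, with 0 muscle and 3 secretory genes. The cause was not tested.

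The density of the 7 genes over that of the silent families averaged 1.67 in AAV-VEGF-C and 7.73 in AAV-Control. The AAV-Control average joins values of 1.14, 11.9 and 10.2. Muc5b held 72.6% and 56.9% of the summed counts in AAV-Control 2 and 3, and the average without Muc5b was not computed. Without Ttn the averages were 2.57 and 12.0. With coding sequence in place of merged exons, which leaves out Muc19, the AAV-VEGF-C value was 0.442. Leaving out a library gave 1.10 to 2.04 and 5.67 to 11.03. The length implied by TPM was not run as a further alternative. Muc5b was the only member whose log2 fold change turned sign under an alternative. On log2(TPM + 1) the values of the other 6 lay between 0.15 and 1.75, and on log2(TPM + 0.1) between 0.30 and 4.01, with Neb lowest on both. Counts of 1 to 3 per AAV-Control library limit what can be said of Flg2 and 9530053A07Rik.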
